A study of Homo sapiens with 4 samples.

Results

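HMOX1 and 9 further genes of haem breakdown and iron handling were followed in U937 cells, an established human line from a lymphoma of monocytic character. The 10 genes were HMOX1, HMOX2, BLVRA and BLVRB for haem breakdown, FTH1 and FTL for iron storage, SLC40A1 for iron export, TFRC for iron uptake, and ALAS1 and FECH for haem synthesis. They were chosen by gene symbol, and every probe set (a group of short probes that reads 1 transcript) whose annotation listed exactly 1 of these symbols was read. That gave 22 probe sets for 9 of the 10 genes, of 54675 probe sets and 19775 genes with a probe set of their own on the array. No probe set carried 1 of these symbols together with others. FTH1, the heavy chain of ferritin, had none listed and was not analysed here.

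Cells had received shikonin, a naphthoquinone pigment of gromwell roots, at 100 nM with 3 h of incubation (2 arrays), and control cells had received its solvent dimethyl sulfoxide, DMSO (2 arrays). A duration was given for the shikonin cells only. All cells were U937, with no other treatment or genetic change in the labels, and total RNA was hybridised to Affymetrix U133 Plus 2.0 arrays. The labels do not say whether the 2 samples of a group were separate cultures, so the p-values rest on a spread that may be technical, and the low number of arrays limits precision.

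Haem oxygenase opens the haem ring and releases iron, carbon monoxide and biliverdin, and biliverdin reductase turns biliverdin into bilirubin. The freed iron is stored in ferritin, a shell of heavy and light chains, or leaves the cell through ferroportin, while new iron enters bound to transferrin. Haem synthesis starts with aminolevulinate synthase and ends when ferrochelatase inserts iron. HMOX1 is known as a stress-inducible gene that the repressor BACH1 holds down and NRF2, the product of NFE2L2, switches on. Monocytes and macrophages are known for recycling haem iron.

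Signal is the deposited intensity, and changes are differences in log2(signal + 9.94), shikonin minus DMSO, from limma, with p-values adjusted by Benjamini and Hochberg's method across the 32768 probe sets tested and a threshold of 0.05. Median signals were 61.0 and 63.7 on the shikonin arrays and 60.5 and 62.2 on the DMSO arrays. Because the arrays were scaled to 1 level, each change is read against all other probe sets of the array. Of 9 monocytic or myeloid markers with a probe set, 7 lay above the 40th percentile of every array, led by CEBPA, LYZ and CD4, whereas CD14 and FCGR1A lay below it on all 4. Of the other lists, 3 of 4 erythroid, 1 of 4 T cell, 1 of 3 B cell, 1 of 2 NK cell and 0 of 3 epithelial markers lay above the 40th percentile of every array. Most probe sets of an array lie above that level by definition, so these counts alone do not name the cells. Summed marker signals were 25183 and 27157 with shikonin and 27420 and 28315 with DMSO for the myeloid list. The sums of the erythroid list were 945 and 1089 with shikonin and 887 and 869 with DMSO. T cell sums ran from 102 to 179, B cell sums from 268 to 339, NK cell sums from 132 to 162 and epithelial sums from 20.6 to 66.2 over the 4 arrays. No marker that was tested passed. CD14, FCGR1A, ALAS2, CD3E, CD3G, CD79B, MS4A1, KLRD1 and all epithelial markers were too dim to be tested.

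HMOX1, ALAS1 and TFRC, which serve haem breakdown, haem synthesis and iron uptake, were higher after shikonin. HMOX1 was 56.3-fold higher, ALAS1 1.74-fold and TFRC 1.37-fold, on the log2(signal + pseudocount) scale. The other 6 genes tested, each read by its brightest probe set, did not pass, and none of the 9 was called lower. Over all 13559 genes tested, 5.00% were called higher and 6.67% lower, so 3 of 9 stands above the share for all genes, which is a description of a list chosen with these results known. Counted over probe sets, 5 of the 21 tested were higher and 0 lower, against 3.92% and 5.27% of all probe sets. Of these 5, 3 read TFRC and 1 each HMOX1 and ALAS1, so this count repeats the same genes. The median change of the 9 genes was 0.20, against 0.00 over all genes.

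**Figure D1:**
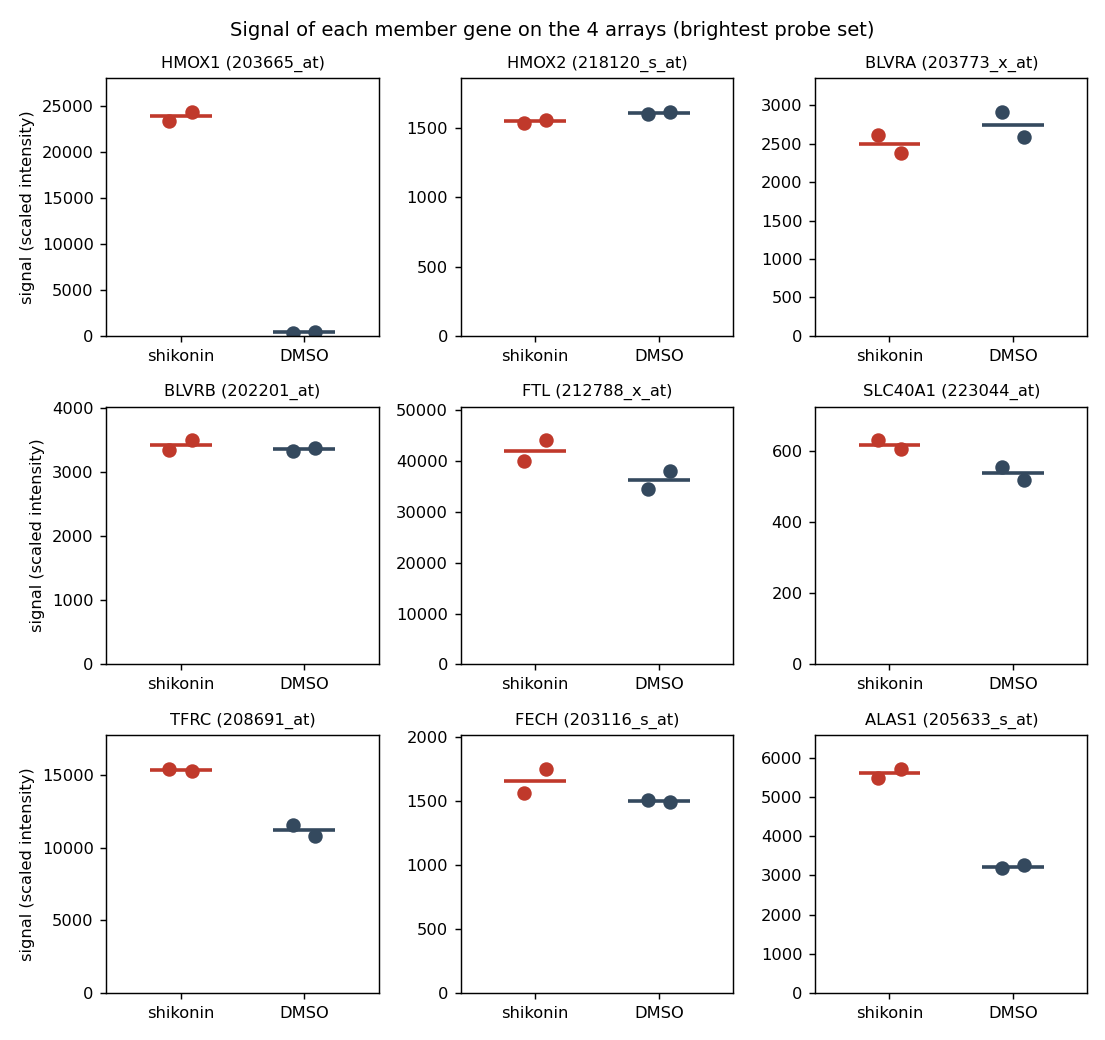
Each panel plots the signal (scaled intensity, linear axis from 0) of 1 gene's brightest probe set on the 2 shikonin and the 2 DMSO arrays; points are arrays and bars are group means. HMOX1 stands near 23897 with shikonin and 417 with DMSO, TFRC and ALAS1 are separated by less, and the 2 groups of BLVRA and BLVRB overlap.

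HMOX1, which encodes the inducible haem oxygenase, had signals of 23424 and 24370.3 on the shikonin arrays, against 374 and 459 on the DMSO arrays (probe set 203665_at). Both shikonin arrays thus lay far above both DMSO arrays, and the DMSO signals themselves lay above the 40th percentile of their arrays (34.8 and 36.3). The means were 23897 ± 669 with shikonin and 417 ± 60.3 with DMSO (SD, n = 2 each). The change was 5.82 (SE 0.092, 95% interval 5.61 to 6.02, limma adjusted p = 3.83e-09), the largest in size of all probe sets tested. With each array left out in turn it stayed between 5.67 and 5.96 and was called each time. It is the gene's only probe set, so no second one could be set beside it. In RNA of a whole culture, a rise in some of the cells cannot be told apart from a smaller rise in all of them.

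HMOX2, the constitutive haem oxygenase, did not follow. Its brighter probe set, 218120_s_at, had signals of 1535 and 1556 on the shikonin arrays, against 1602 and 1613 on the DMSO arrays. The groups did not overlap and differed little, with a change of -0.06 (95% interval -0.22 to 0.11, limma adjusted p = 0.7). Its other probe set, 218121_at, had 428 and 531 with shikonin and 376 and 410 with DMSO, a change of 0.27 (95% interval -0.04 to 0.59, limma adjusted p = 0.276). The probe sets of HMOX2 therefore pointed in opposite directions, neither passed, and the upper bounds of both intervals lay far below the change of HMOX1. Non-overlap is common with 2 arrays a group: both shikonin arrays lay above both DMSO arrays in 27.0% of all probe sets tested and below them in 26.1%.

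Biliverdin reductase is encoded by BLVRA, the main enzyme of adult tissue, and BLVRB, which is also known as a flavin reductase. BLVRB signals were 3346 and 3499 with shikonin, against 3333 and 3388 with DMSO. These groups overlapped, and the change was 0.03 with a 95% interval of -0.11 to 0.17. BLVRA had 5 probe sets, of which 4 were bright enough for the test and none passed. Its brightest, 203773_x_at, had 2616 and 2378 with shikonin and 2909 and 2581 with DMSO, and the change was -0.14 (95% interval -0.32 to 0.05). The next, 211729_x_at, went the other way at 0.12, with 2198 and 2283 with shikonin against 2186 and 1932 with DMSO, and 203771_s_at lay at 0.07. A dim probe set, 229109_s_at, had 23.9 and 25.0 with shikonin, under the 40th percentile of both arrays, against 67.9 and 58.1 with DMSO. Its change of -1.08 had a limma adjusted p of 0.2 and a 95% interval from -2.15 to -0.01, so this BLVRA probe set does not share the near-zero values of the brighter ones but is poorly measured. The fifth, 203772_at, was under the 40th percentile on 3 of the 4 arrays and was not tested.

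POR, the reductase that hands electrons to haem oxygenase, was the other gene of the haem breakdown list. It had 936 and 836 with shikonin, against 649 and 737 with DMSO, and did not pass (0.35, limma adjusted p = 0.0797). Haem breakdown thus had 1 called gene of 5 tested, HMOX1, with a median change of 0.03. Over all genes tested, 5.00% were called higher and 6.67% lower, so a list this short says little beyond its named genes.

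FTL, the light chain of ferritin, is regulated mainly in translation, through a hairpin in its messenger RNA that iron regulatory proteins bind when iron is scarce. The hairpin's loop is shown because it marks the message that the array measures without its translation. In the RefSeq start window of FTL (GRCh38.p14, plus strand, chr19:48965333-48965358, positions 25 to 50 of the transcript), the 6 loop bases are in capitals:
FTL: gtctcttgcttcaaCAGTGTttggac
The letters searched were CNNNNNCAGTGN, a C followed after 5 bases by the loop. They were found on the transcript strand in 10.1% of 35116 RefSeq windows of 300 bases around gene starts, and on either strand in 18.5%, so the match alone is no mark of a hairpin.

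FTL signals on 212788_x_at were 40057 and 44050.3 with shikonin, against 34440.2 and 38078 with DMSO. The groups did not overlap, and the change of 0.21 narrowly missed the threshold (SE 0.062, 95% interval 0.07 to 0.35, limma adjusted p = 0.0648). The second probe set, 213187_x_at, had 31274 and 33359 with shikonin and 29203 and 30783 with DMSO, a change of 0.11 (limma adjusted p = 0.234). Both FTL probe sets were among the brightest on the arrays, whose highest signals were 45051 and 45934 with shikonin and 41709 and 44569 with DMSO. The part of signal saturation was not tested. The FTL call depended on the setting: the adjusted p was 0.0127 after quantile normalization, 0.0283 after median centring and 0.0264 without DMSO replicate 2, and 0.326 without shikonin replicate 2.

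FTH1P5 is a processed copy of the ferritin heavy chain gene and not 1 of the 10 genes. Its probe set was looked at after the values were seen, because FTH1 had none. The probe set, 211628_x_at, had 11967 and 11667 with shikonin, against 5104 and 5236 with DMSO. Both shikonin arrays lay above both DMSO arrays, and the change was 1.19 (SE 0.053, limma adjusted p = 3.98e-06), or 2.28-fold. Its name ends in _x_at, which marks probes that can bind several related transcripts, and the copy from which the signal came is uncertain. Both FTL probe sets have the same ending, as do 203773_x_at and 211729_x_at of BLVRA and 240686_x_at of TFRC. NCOA4, which delivers ferritin for breakdown, and PCBP1 and PCBP2, which carry iron to ferritin, did not pass, with changes of 0.04, 0.11 and 0.15. The storage list had 0 called of 4 tested genes. At shares of 5.00% higher and 6.67% lower over all genes, 0 calls in so short a list say little.

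SLC40A1 encodes ferroportin, the iron exporter of the cell surface. Its brighter probe set, 223044_at, had 628 and 604 with shikonin, against 553 and 519 with DMSO. The groups did not overlap, yet the change of 0.20 did not pass (95% interval -0.04 to 0.44, limma adjusted p = 0.302). The dimmer probe set, 233123_at, had 98.9 and 129.9 with shikonin, against 93.1 and 98.8 with DMSO, and the change was 0.22 with an interval of -0.39 to 0.83. Of 5 tested genes of the iron export list, 0 were called, and the median change was 0.10. Such a count lies near the shares over all genes, 5.00% higher and 6.67% lower.

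TFRC encodes the transferrin receptor, through which transferrin-bound iron is taken up, and its message is known to be stabilised by iron regulatory proteins when iron is scarce. The 250 bases before the RefSeq start of TFRC are shown as those of a called gene (GRCh38.p14, minus strand, chr3:196082091-196082340), with GC boxes, the letters GGGCGG on either strand, in capitals:
TFRC: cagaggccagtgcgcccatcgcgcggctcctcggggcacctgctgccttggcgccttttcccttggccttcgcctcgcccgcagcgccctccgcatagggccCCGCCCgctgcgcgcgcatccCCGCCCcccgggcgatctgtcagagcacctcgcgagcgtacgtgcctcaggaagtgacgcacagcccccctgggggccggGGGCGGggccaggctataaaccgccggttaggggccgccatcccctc
The stretch holds 3 GC boxes, which Sp1 family factors are known to bind. GC boxes were found on either strand in 45.0% of the 35116 windows. Every gene of the list that had a window held a GC box. BLVRB, SLC40A1, FECH, FTL, BLVRA and HMOX2, which were not called, were among them.

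TFRC had 5 tested probe sets, and the 3 bright ones rose together. On 208691_at, signals were 15423 and 15316 with shikonin, against 11574 and 10827 with DMSO. The change was 0.46 (SE 0.052, 95% interval 0.34 to 0.58, limma adjusted p = 0.00109), or 1.37-fold. The second, 207332_s_at, had 12248 and 12199 with shikonin and 9023 and 9147 with DMSO, a change of 0.43 (limma adjusted p = 0.00109). The shikonin arrays lay above the DMSO arrays on both, and within each group the arrays differed by far less than the groups did. On 237215_s_at, signals were 2038 and 2079 with shikonin, against 1361 and 1379 with DMSO, a change of 0.58 (95% interval 0.42 to 0.75, limma adjusted p = 0.00167). All 3 kept the call with any 1 array left out, with changes of 0.41 to 0.51, 0.42 to 0.44 and 0.57 to 0.60. The other probe sets, 240686_x_at and 237214_at, were dim (22.5 to 57.7 over the arrays) and had changes of 0.30 and 0.18 with intervals that ran from below -0.86 to above 1.21.

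**Figure D2:**
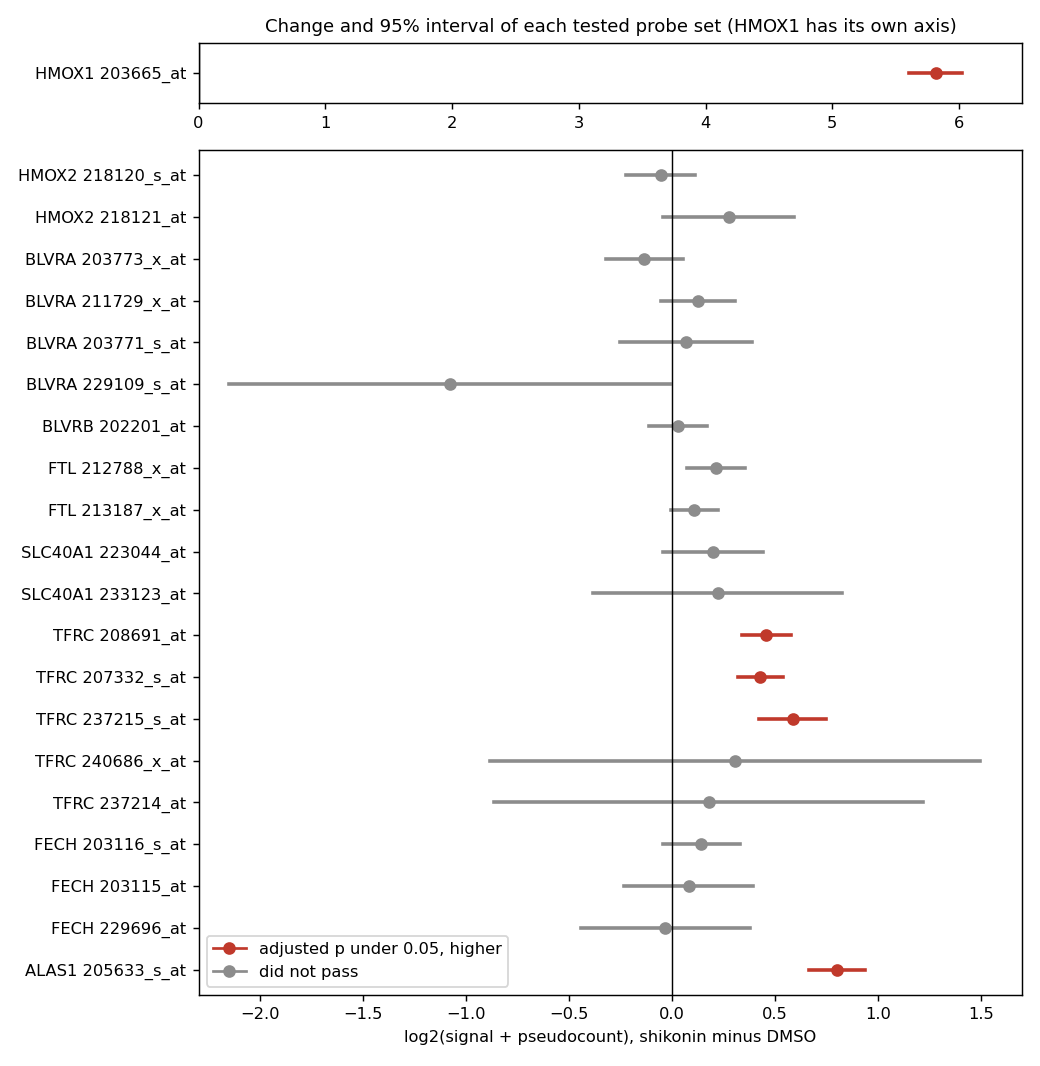
The horizontal axis is the change in log2(signal + pseudocount), shikonin minus DMSO, of each of the 21 tested probe sets, with its 95% interval as a bar; red marks an adjusted p under 0.05, and HMOX1 has an axis of its own. HMOX1 lies at 5.82, ALAS1 at 0.80 and the 3 bright TFRC probe sets between 0.43 and 0.58, while the dim probe sets of BLVRA and TFRC have the widest intervals.

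The other 7 tested genes of the iron uptake list did not pass. STEAP3, an endosomal ferric reductase, had a change of 0.13, and SLC39A14, a metal importer, 0.19. SLC11A2, the divalent metal transporter that moves iron out of endosomes, lay at -0.23. TF, transferrin itself, lay at 0.91 with a wide interval of -0.24 to 2.07 (limma adjusted p = 0.317), and its other tested probe set went the opposite way at -1.77 (95% interval -3.11 to -0.44) without passing. The list had 1 called gene of 8 and a median of 0.13. Over all genes tested, 5.00% were called higher and 6.67% lower.

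ALAS1 encodes the housekeeping aminolevulinate synthase, which catalyses the first and rate-limiting step of haem synthesis, and haem is known to repress it. The 250 bases before its RefSeq start (GRCh38.p14, plus strand, chr3:52197833-52198082) are shown with GC boxes in capitals, and the second line gives positions 14 to 39 of the transcript (chr3:52198096-52198121) with a match to the element of nuclear respiratory factor 1 in capitals:
ALAS1 upstream: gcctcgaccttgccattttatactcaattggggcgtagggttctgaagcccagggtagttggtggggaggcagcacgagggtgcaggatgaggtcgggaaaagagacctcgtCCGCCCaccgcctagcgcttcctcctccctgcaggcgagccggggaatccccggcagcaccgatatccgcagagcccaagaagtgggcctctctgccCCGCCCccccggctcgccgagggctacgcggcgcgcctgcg
ALAS1 start: cgcccaagGCGCATGCGCagcggtca
The upstream stretch holds 2 GC boxes. Nuclear respiratory factor 1 controls many genes of mitochondrial function, and its element, searched on both strands, matched both strands at positions 22 to 31 and the minus strand once more from -9 to 1. It was found on either strand in 5.78% of all windows, and in no other window of the 8 genes that had one.

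HMOX1 and FTH1 had no window and were not searched for any motif. Among the 8 genes that had one, the core of the antioxidant response element that NRF2 binds, TGACNNNGC, matched the window of FECH only, from -38 to -30 on the minus strand. That core was found in 13.3% of all windows. The AP-1 element TGACTCA matched none of the 8 genes (4.95% of all windows), and the E-box CACGTG matched HMOX2 only, at -28 to -23 (7.26%). A match is a description of letters and not of a bound site, and the motifs were picked after the values were known.

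The ALAS1 signals were 5500.1 and 5721 with shikonin, against 3182 and 3256 with DMSO (probe set 205633_s_at). The groups were well apart, with means of 5611 ± 157 with shikonin and 3219 ± 52.3 with DMSO (SD, n = 2 each). The change was 0.80 (SE 0.059, 95% interval 0.67 to 0.93, limma adjusted p = 1.02e-04), and it stayed between 0.77 and 0.83, and called, with any 1 array left out. ALAS2, the erythroid form, had signals of 43.5 and 3.42 with shikonin and 35.0 and 13.7 with DMSO and was too dim to be tested. The summed signal of the erythroid markers given above was higher on both shikonin arrays than on both DMSO arrays, although no marker passed. Only KLF1 among them had separate groups, at 299 and 312 with shikonin against 197 and 234 with DMSO. The groups of EPOR, HBB and ALAS2 overlapped. The summed signals of the myeloid and NK cell lists were lower on both shikonin arrays than on both DMSO arrays, and the remaining sums overlapped. CEBPA, the brightest myeloid marker, lay at -0.22 (95% interval -0.35 to -0.08) and narrowly missed the threshold. Its limma adjusted p was 0.0542, against 0.0989 for KLF1. The part of these markers in the ALAS1 result was not tested.

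FECH encodes ferrochelatase, the last enzyme of haem synthesis, and had 3 probe sets. The brightest, 203116_s_at, had 1559 and 1749 with shikonin, against 1504 and 1488 with DMSO, a change of 0.14 (95% interval -0.05 to 0.33, limma adjusted p = 0.342). The others, 203115_at and 229696_at, lay at 0.08 and -0.03 with overlapping groups. None passed, and all 3 intervals of FECH ended below the lower bound of ALAS1. The tested enzymes between ALAS1 and FECH did not pass either. ALAD lay at -0.30, UROS at 0.09, UROD at 0.18, CPOX at -0.01 and PPOX at -0.02. Haem synthesis thus had 1 called gene of 7 tested and a median of 0.09. The shares over all genes were 5.00% higher and 6.67% lower.

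The 10 genes were set among 9 lists, of haem and iron genes and of HMOX1 regulators, which hold 74 genes. Not every list holds 1 of the 10. Of these, 61 could be tested, of which 5 were higher and 4 lower, with a median change of 0.08. Without the 10 genes, 2 of 52 (3.85%) were higher and 4 (7.69%) lower, near the shares over all genes of 5.00% and 6.67%. The 2 further risers were haem transporters. SLC48A1, which carries haem out of endosomes and lysosomes into the cytosol, had 960 and 974 with shikonin, against 454 and 498 with DMSO. The groups did not overlap, and the change was 1.01 (SE 0.10, limma adjusted p = 5.77e-04), or 2.01-fold. Both other probe sets of SLC48A1 were called higher too, at 1.31 and 1.11. FLVCR1, which is known to export haem, had 2487 and 2413 with shikonin, against 2099 and 1964 with DMSO. Its change was 0.27 (limma adjusted p = 0.0474), while its other probe set, also at 0.27, did not pass (limma adjusted p = 0.126). The call of FLVCR1 was lost with any 1 array left out, with changes of 0.22 to 0.32. It was also lost after median centring (limma adjusted p = 0.102).

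**Figure D3:**
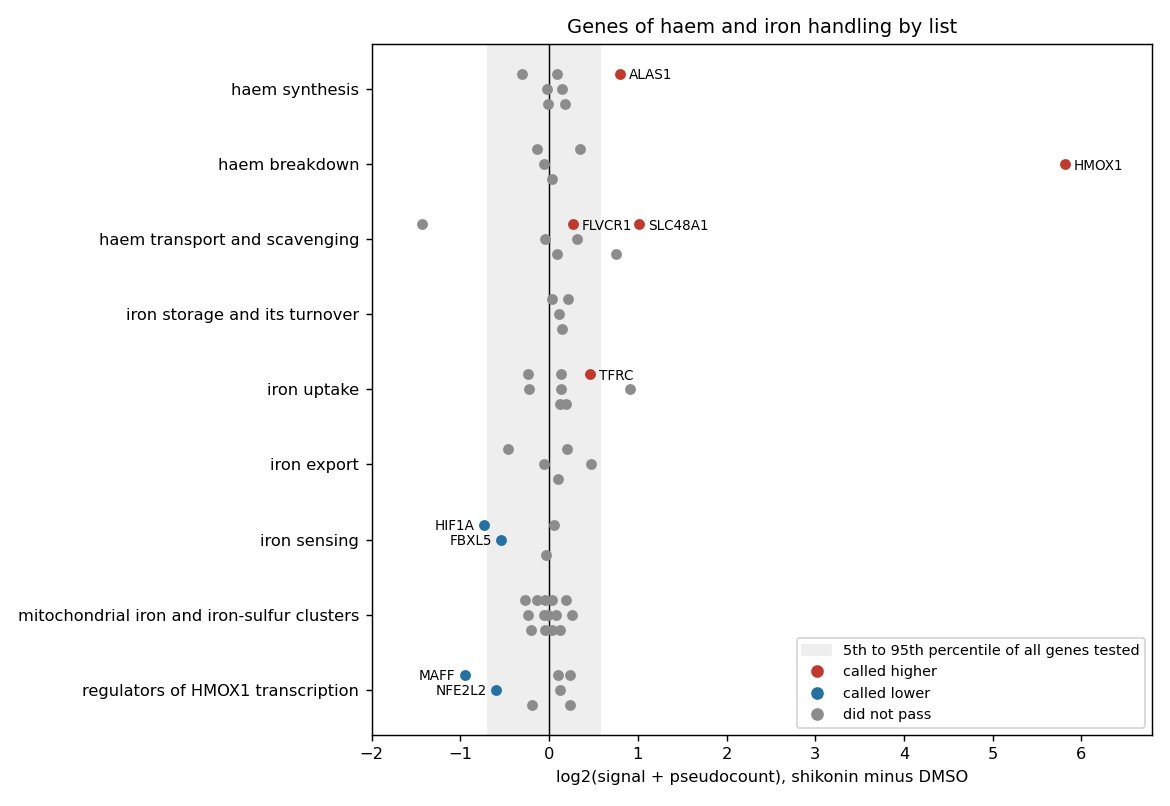
Each point is 1 of 61 tested genes by its brightest probe set, placed by its change in log2(signal + pseudocount), shikonin minus DMSO, and grouped by list; the grey band holds the 5th to 95th percentile of all genes tested (-0.69 to 0.58). The named genes passed the test: 5 lie right of 0 with HMOX1 far apart at 5.82, and 4 lie left of 0 in the lists of iron sensing and of HMOX1 regulators.

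Of 4 tested genes of iron and oxygen sensing, 2 fell, where 6.67% of all genes tested were called lower; so short a list says little beyond its named genes. FBXL5, the iron-sensing ubiquitin ligase subunit that marks iron regulatory protein 2 for destruction, had 1452 and 1292 with shikonin, against 2075 and 1935 with DMSO. Its change was -0.55 (SE 0.086, limma adjusted p = 0.0052), and its other probe set was called lower as well at -0.63. HIF1A, an oxygen- and iron-regulated transcription factor, had 2452 and 2387 with shikonin, against 4241 and 3840 with DMSO, a change of -0.74. ACO1, which encodes iron regulatory protein 1, did not pass (-0.04), and IREB2, the gene of iron regulatory protein 2, had no tested probe set. All 14 tested genes of mitochondrial iron and iron-sulfur clusters failed the threshold by their brightest probe set, with changes between -0.27 and 0.26. By the shares over all genes, 5.00% higher and 6.67% lower, few calls would fall among 14 genes. SLC25A37, the mitochondrial iron importer mitoferrin 1, had a change of -0.24, and 1 of its 9 other tested probe sets was called lower at -0.36.

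Of 7 tested regulators of HMOX1 transcription, 2 fell and 0 rose, where 6.67% of all genes tested were called lower and 5.00% higher. NFE2L2 had 4335 and 4002 with shikonin, against 6475 and 6142 with DMSO, a change of -0.60 (limma adjusted p = 7.58e-04), and its other tested probe set was called lower too. MAFF, a small MAF partner of NRF2 and BACH1, had 265 and 264 with shikonin, against 545 and 499.5 with DMSO. Its change was -0.95 (limma adjusted p = 0.00262), while its other probe set, at -0.28, did not pass. BACH1 lay at -0.19 (95% interval -0.41 to 0.03), MAFG at 0.23, HSF1 at 0.10 and NFE2L1 at 0.12, and none of these passed. KEAP1, which holds NRF2 for degradation, lay at 0.23 and just missed the threshold (limma adjusted p = 0.0546), with 3188 and 3104 with shikonin against 2721 and 2629 with DMSO. It passed after quantile normalization (0.0461), with a filter at 60% in place of 40% (0.0329) and with the mean of a gene's probe sets (0.0409), but not with any 1 array left out (0.103 to 0.207). MAFK was not tested.

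The 3 genes with the pattern closest to HMOX1 over the 4 arrays were LINC00304, HSPA6 and BAG3, a noncoding RNA, an inducible HSP70 chaperone and its co-chaperone. Closeness was the Euclidean distance between log2 values after subtraction of the mean of the DMSO arrays. The distances were 1.76, 2.77 and 4.53, so HMOX1 had no near neighbour. With 4 arrays the measure mostly ranks genes by the size of their rise. LINC00304 lay under the 40th percentile of both DMSO arrays, against signals of 625 and 821 with shikonin, so the size of its rise is uncertain. Its change of 4.59 became 5.08 with a pseudocount of 1 and 3.74 with a pseudocount at the 40th percentile. With the mean of its probe sets it was 2.41. HSPA6 and BAG3 lay above the 40th percentile on every array.

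The calls of HMOX1, ALAS1 and TFRC held under every alternative in which they were tested, except a variance model without a trend on signal. Under that model limma called no gene (2407 genes had an unadjusted p under 0.05), and the adjusted p was 0.0833 for HMOX1, 0.147 for ALAS1 and 0.178 for TFRC. ALAS1 has no value without _x_at and _s_at probe sets, as its only probe set is of that kind.

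**Figure D4:**
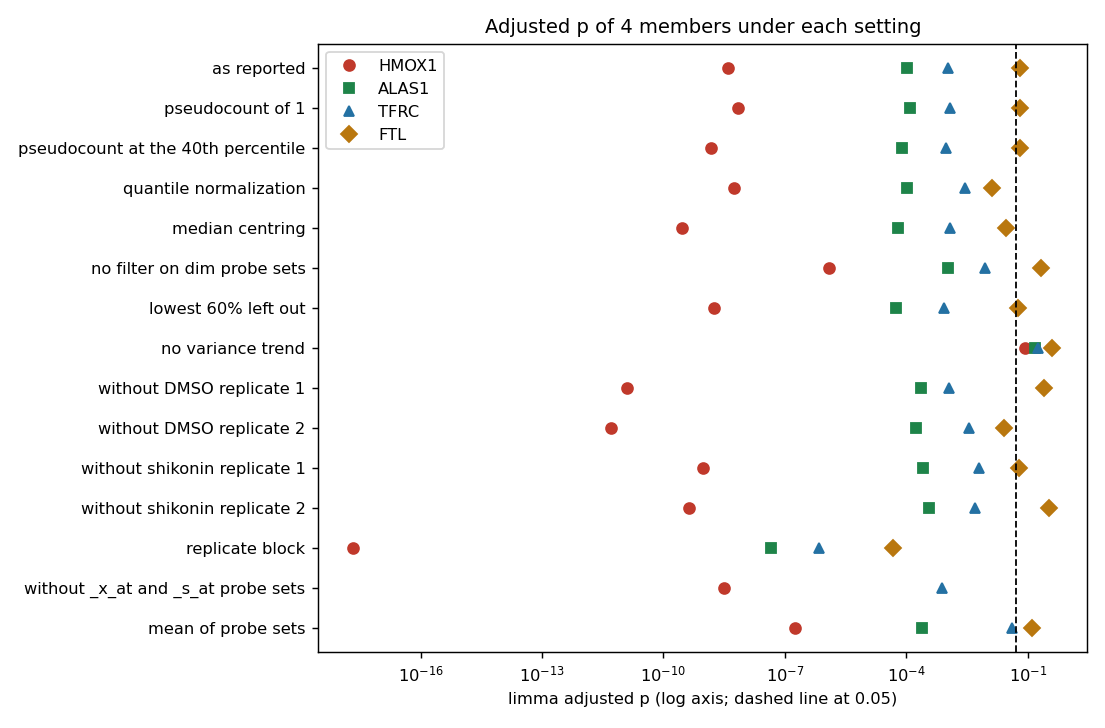
The horizontal axis (log scale) is limma's adjusted p of HMOX1, ALAS1, TFRC and FTL under each setting, and the dashed line stands at 0.05. HMOX1, ALAS1 and TFRC lie left of the line under all settings shown but that with no variance trend, and FTL lies on both sides of it, at 0.0648 as reported.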

How the data were processed

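Total RNA was labelled with biotin after 3'-biased amplification and hybridised to 1-colour arrays, per the labels' protocols. The deposited values are linear intensities, 1 per probe set and array, made by the authors with software not given in the sources used; the mean between the lowest and highest 2% of values was 500.1 on every array, as after a scaling, which removes differences in total signal. Genes were named from the supplied platform annotation (41097 probe sets with 1 symbol, 1801 with several, 11777 with none listed).

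Intensities were turned into log2(signal + 9.94), the pseudocount being the 20th percentile of all values, so folds of dim genes are understated. The log2 medians lay within 0.066 of each other and no further normalization was applied. The 62 controls and the dimmest 40% of probe sets were left out. Tests were two-sided, with limma 3.58.1 in R 4.3.3 (eBayes with a variance trend), 2 residual and 7.1 prior degrees of freedom, and the same procedure was tested on simulated arrays, where false calls lay mostly among the dimmest probe sets. The simulated noise followed a trend of spread on signal, as the model assumes, so the simulation could not check that assumption. An exact permutation test of 2 against 2 cannot go below p = 0.333. A gene is represented by its brightest probe set with 1 symbol. Named were the 10 genes, the pathway genes that passed (up to 20), BACH1, NFE2L2, KEAP1, MAFF, MAFG, MAFK, ACO1, IREB2, FBXL5 and the 3 genes most like HMOX1; further genes of the lists are given as examples chosen after their values were seen. Genes, lists and rules were chosen with earlier results of these data known. Sequences are from RefSeq (GRCh38.p14), where 8 of the 10 genes, all but HMOX1 and FTH1, had a start window. The 14 alternatives covered the pseudocount, normalization, dim-probe filter, variance model, left-out arrays, replicate numbers as a block and the choice of probe set.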

Additional observations from a re-analysis of the deposited data

How the results depend on the processing

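Of 302 results for 22 named genes under 14 alternatives, 269 kept their direction and side of the threshold, 20 lost the call, 8 gained one and 5 changed sign. Of the 20 losses, 12 came with a variance model without a trend, which called 0 probe sets, 0 genes, 0 of the 10 genes and 0 pathway genes by limma and left HMOX1 at 5.82 with an adjusted p of 0.0833; the other 8 were all of FLVCR1. The sign changes were of values that did not pass. HMOX2 moved to 0.27 without _x_at and _s_at probe sets, which leaves its other probe set, and to 0.11 with the mean of its probe sets. The rest were values near 0, BLVRB at -0.0062 without shikonin replicate 2, and ACO1 at 0.0035 without DMSO replicate 2 and 0.0055 without shikonin replicate 1. With each array left out in turn, BLVRB ran from -0.0062 to 0.058 and ACO1 from -0.078 to 0.0055. The 3012 probe sets called became 1749 without the dim filter, which tests more probe sets, 1696 without _x_at and _s_at probe sets, 5041 with the replicate block and 1831 to 1997 with 1 array left out. The 1583 genes called became 959 without the dim filter, 2599 with the replicate block and 964 to 1066 with 1 array left out. With the replicate block 19 pathway genes were called in place of 9, FTL passed on both probe sets (adjusted p 4.71e-05 and 0.0199) and KEAP1 passed (0.0191). The titles number the samples, but no label says that equal numbers share a culture or day, and the deviations of shikonin 1 and DMSO 1 from their group means correlated at 0.016 across probe sets, so the block is given here only. Without 1 array the lone sample is assumed to vary like the other group. At this number of arrays, dim probe sets such as those of BLVRA and TFRC have intervals too wide to show a change of the size seen in TFRC.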
